A study of Mus musculus with 8 samples.

Results

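The genes described here are 41 genes of skeletal muscle: proteins of the sarcomere, of the triad that couples excitation to calcium release, and of the fibre's energy supply, with a few muscle genes of protein turnover or other roles. They were chosen by gene symbol, with earlier results of these data known. Each was read from its single-gene probe set with the highest mean over the 8 arrays. All 41 had such a probe set, among 22180 genes that could be read in this way, and 40 of them were among the 15526 genes bright enough to test. The tissue was annulus fibrosus, the ring of fibrocartilage around the nucleus of an intervertebral disc, taken from thoracic discs of Black 6 mice. ENT1-null mice lacked exons 2 to 4 of Slc29a1, the gene of equilibrative nucleoside transporter 1 (ENT1), and WT mice were the controls. Mice were 2 or 6 months old, and the 4 groups of genotype and age had 2 arrays each. Each array held RNA of 5 to 6 pooled tissues. It is not stated if both pools of a group held different mice. The p-values therefore reflect variation among pools alone, which may be technical, and so few arrays limit the precision. Levels are deposited log2 values, so that a difference of 1 is a 2-fold difference.

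A skeletal muscle fibre contracts when thick filaments of myosin slide along thin filaments of actin, which are anchored at the Z discs. The signal comes through the triad, where voltage-sensing channels of the surface membrane open the ryanodine receptors of the sarcoplasmic reticulum, and the calcium released is later pumped back. Creatine kinase, glycogen breakdown, glycolysis and respiration supply the ATP. The annulus fibrosus itself is a tissue of fibrochondrocytes, and these genes are known as genes of striated muscle.

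Promoter windows, 250 bases before the annotated start site, were found for 30 of the 41 genes (36 windows, RefSeq, GRCm38.p6). They were searched on both strands for the muscle E box (CAGNTG), the MEF2 site and the CArG box, which are bound by MyoD-type factors, MEF2 factors and serum response factor. No match of one motif overlapped a match of another in these windows. An E box was present in 27 of the 36 windows (75.0%; 23 genes), against 44.8% of all 32851 windows of the same length. A MEF2 site was present in 6 windows of 6 genes (16.7%, against 1.69%) and a CArG box in 4 windows of 3 genes (11.1%, against 1.47%). The windows of some alternative starts overlap, so that 1 CArG box of Ldb3 and 1 E box each of Jph2 and Mb were counted in 2 windows. A match describes the letters only. Printed here are the windows of Klhl41, a gene whose fall at 6 months held in every alternative fit, of Ttn and Acta1, which encode large parts of the sarcomere, and of Trim63, a muscle gene that did not pass at 6 months. Capitals mark E boxes, MEF2 sites and CArG boxes, and all are printed 5′ to 3′ along the gene's strand (Klhl41 at chr2:69669870-69670119, plus strand; Ttn at chr2:76982548-76982797, minus strand; Acta1 at chr8:123894776-123895025, minus strand; Trim63 at chr4:134314870-134315119, plus strand).
Klhl41: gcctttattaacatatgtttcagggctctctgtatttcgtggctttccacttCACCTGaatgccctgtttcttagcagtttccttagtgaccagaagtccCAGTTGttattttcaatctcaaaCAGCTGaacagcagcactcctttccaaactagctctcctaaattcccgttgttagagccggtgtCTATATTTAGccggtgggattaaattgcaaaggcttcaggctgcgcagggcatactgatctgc
Ttn: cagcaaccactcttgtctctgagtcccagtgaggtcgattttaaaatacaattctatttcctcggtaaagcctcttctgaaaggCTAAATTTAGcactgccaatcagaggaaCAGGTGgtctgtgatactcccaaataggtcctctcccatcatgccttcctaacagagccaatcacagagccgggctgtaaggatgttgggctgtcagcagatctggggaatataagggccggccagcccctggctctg
Acta1: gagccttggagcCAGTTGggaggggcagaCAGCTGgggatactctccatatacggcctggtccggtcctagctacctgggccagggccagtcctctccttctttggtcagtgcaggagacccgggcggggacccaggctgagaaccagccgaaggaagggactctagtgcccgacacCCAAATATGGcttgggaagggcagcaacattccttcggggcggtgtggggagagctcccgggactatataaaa
Trim63: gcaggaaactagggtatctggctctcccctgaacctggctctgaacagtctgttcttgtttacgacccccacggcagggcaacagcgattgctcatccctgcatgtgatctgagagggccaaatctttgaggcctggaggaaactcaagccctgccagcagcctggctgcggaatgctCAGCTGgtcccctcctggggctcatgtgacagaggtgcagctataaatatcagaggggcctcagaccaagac
Klhl41 had 3 E boxes and a MEF2 site that began 63 bases before the start site, and Ttn had 1 E box and 1 MEF2 site. Acta1 had 2 E boxes and a CArG box, and Trim63 had a single E box, so that each of the 4 windows held an E box.

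Array medians of all deposited values lay between 6.77 and 6.82. Slc29a1 read 10.71 and 10.69 in 2 month WT, 9.21 and 9.36 in 2 month ENT1-null, 10.34 and 10.43 in 6 month WT and 8.90 and 8.80 in 6 month ENT1-null, so that the genotypes did not overlap at either age. Which part of the gene its probe set reads was not examined. The tissue label was checked on 20 genes of annulus and cartilage matrix, whose median read 11.97 and 12.01 in 2 month WT, 11.64 and 11.85 in 2 month ENT1-null, 11.34 and 11.46 in 6 month WT and 11.06 and 10.90 in 6 month ENT1-null, above the median of all genes tested on every array (7.76 to 7.87).

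The muscle genes moved together from array to array, and the arrays of one group often stood far apart. Their median level was 7.32 and 8.06 in the 2 month WT arrays, 7.69 and 8.98 in 2 month ENT1-null, 9.07 and 9.08 in 6 month WT, and 6.86 and 7.75 in 6 month ENT1-null. Both 6 month WT arrays and 2 month ENT1-null array 2 were high, and 6 month ENT1-null array 1 and 2 month WT array 1 were low. Array 1 of 6 month ENT1-null held the lowest value of 35 of the 41 genes, and the highest values fell on 2 month ENT1-null array 2 (17 genes), 6 month WT array 2 (12), 6 month WT array 1 (11) and 2 month WT array 1 (1). After each gene was centred on its mean, 1 principal component held 94.4% of the variance of the 41 genes. Counts of these genes are therefore not counts of independent results. Genes were not scaled to equal variance, so that those with a wide range weighed most. By gene the component held from 16.3% (Jph2) to 99.5% (Mb) of the variance. It held 20.7% for Jsrp1, 25.4% for Trim63 and 52.1% for Klhl41. By group mean, 38 genes were highest in 6 month WT and 39 were lowest in 6 month ENT1-null. In these bulk samples fewer muscle fibres and less RNA per fibre cannot be told apart.

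**Figure D1:**
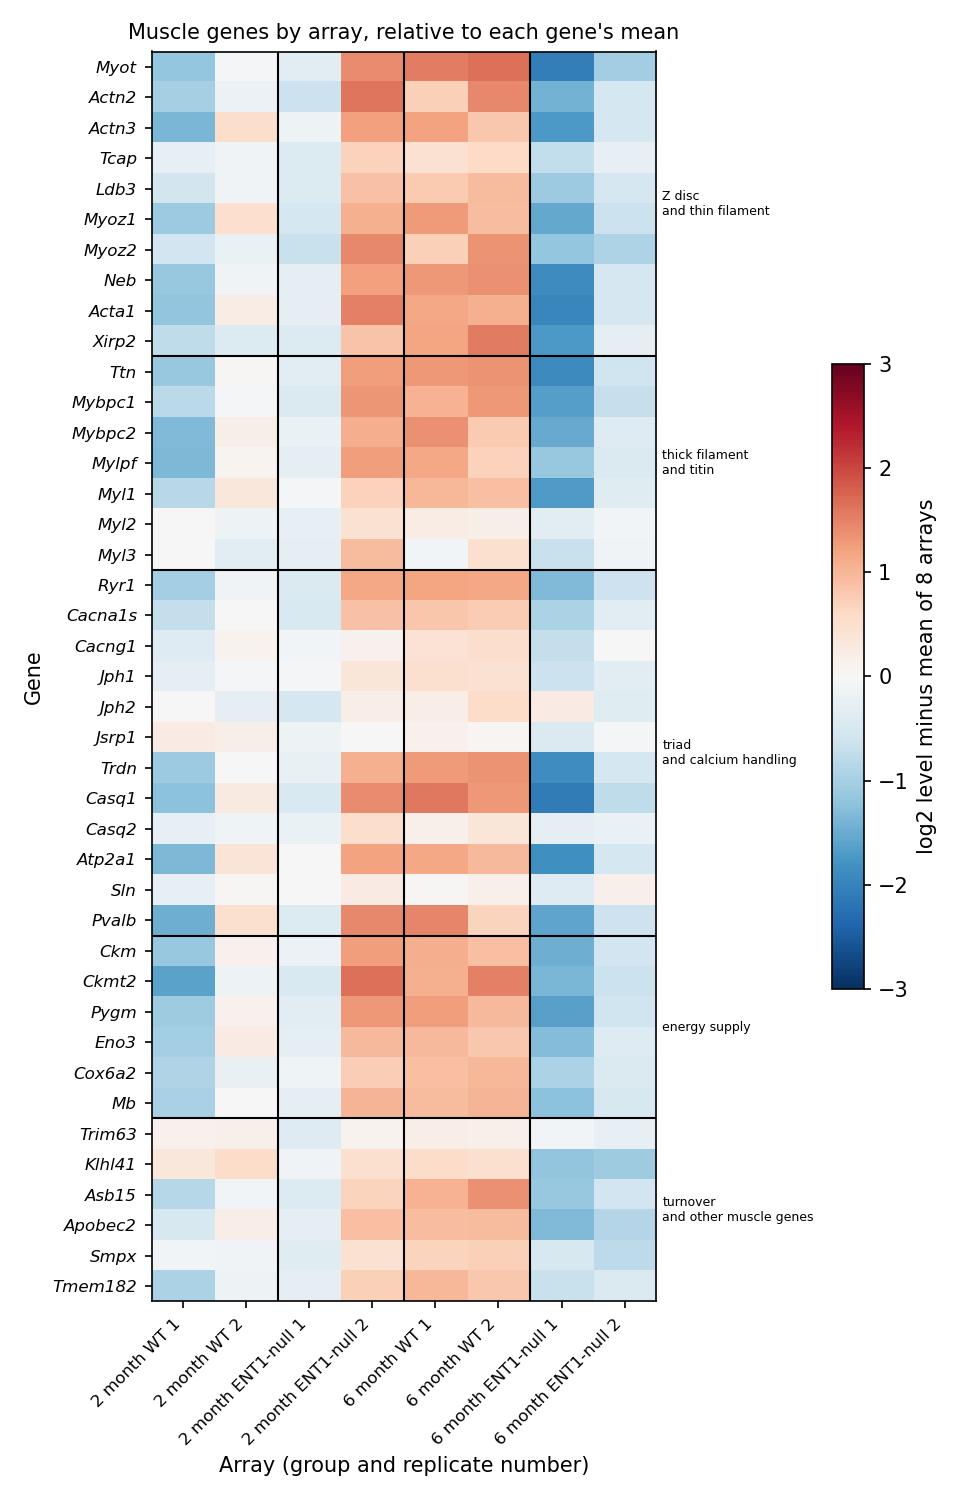
Each row is 1 of the 41 muscle genes in 5 role groups (black lines) and each column is 1 array; colour shows the log2 level minus that gene's mean over the 8 arrays. Most rows share 1 pattern, with the lowest values of 35 genes on 6 month ENT1-null array 1, while Trim63, Sln and Jsrp1, the 3 genes with the narrowest range, stay pale.

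The spread between the 2 arrays of a group was wide for these genes in 3 of the 4 groups. In 2 month ENT1-null all 41 genes were higher on array 2, with a median absolute difference of 1.29 against 0.12 over the 15526 genes tested. In 2 month WT 36 genes were higher on array 2 (median absolute difference 0.80, all genes 0.10), and in 6 month ENT1-null 38 were (0.71, all genes 0.13). Of all genes tested 59.0% were higher on array 2 in 2 month ENT1-null, 58.5% in 2 month WT and 48.7% in 6 month ENT1-null. A difference of at least 1 between the 2 arrays was seen in 28 genes in 2 month ENT1-null, 17 in 2 month WT and 12 in 6 month ENT1-null, against 0.490%, 0.824% and 0.528% of all genes tested. The 6 month WT arrays were close together (median absolute difference 0.16, all genes 0.10), with 21 genes higher and 20 lower on array 2. Of all genes tested 51.8% were higher on array 2 there. In the 3 groups other than 6 month WT, 35 genes were higher on array 2 each time, Myl2, Myl3, Jsrp1 and Trim63 in 2 groups, and Jph2 and Smpx in 1.

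Within these shifts, fast and slow forms were set side by side in 6 pairs, chosen after their values were seen: Actn3 and Actn2, Myoz1 and Myoz2, Casq1 and Casq2, Mybpc2 and Mybpc1, Mylpf and Myl2, and Myl1 and Myl3, each with the gene known from fast fibres named first. Between the 6 month WT arrays all 6 fast genes were lower on array 2, and 5 of the 6 partners were higher. Actn3, the alpha-actinin of fast fibres, differed by −0.40 there and Actn2, the alpha-actinin of all fibres, by 0.72. Mybpc2, fast myosin-binding protein C, differed by −0.57 and Mybpc1, the slow form, by 0.25. Fast genes outside the pairs did not all follow: between the same arrays Tnni2, a fast troponin, read 10.27 and 10.35, and the fast myosin heavy chains Myh1 and Myh2 read 10.25 and 10.34 and, for Myh2, 9.56 and 9.88, all higher on array 2. Lower on array 2 were Tnnt3 (11.47 and 11.32) and Tnnc2 (9.79 and 9.62), fast troponins, and Myh4 (10.82 and 10.15), a fast myosin heavy chain. Of slow genes outside the pairs Myh7 read 6.77 and 7.11, Tnni1 7.04 and 7.64 and Tnnc1 7.05 and 7.44, while Tnnt1 read 6.96 and 6.95. In 2 month WT the fast gene of the pair gained more on array 2 in all 6 pairs, as in 6 month ENT1-null. Casq1, the calcium store protein of fast fibres, differed by 1.50 in 2 month WT and Casq2, known from slow and cardiac fibres, by 0.12. In 2 month WT and 6 month ENT1-null the means of Casq2 and Mylpf were under 6.21, the level used to filter genes for testing. Myoz2 was under it in 6 month ENT1-null. Myl2 and Myl3 were also dim, with means over the 8 arrays of 6.96 and 6.63, and Myl2 ranged by only 0.78 over them. Such low levels can limit the differences that could be seen, and a larger gain of the fast gene may partly reflect a dim partner. Mylpf, with a mean of 6.63, still differed by 1.42 in 2 month WT. The part of brightness was not tested. In 2 month ENT1-null the fast gene gained more in 2 pairs only, and Actn2 (2.27) gained more than Actn3 (1.38). These are differences between single arrays, with no test, and they describe these pairs only.

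**Figure D2:**
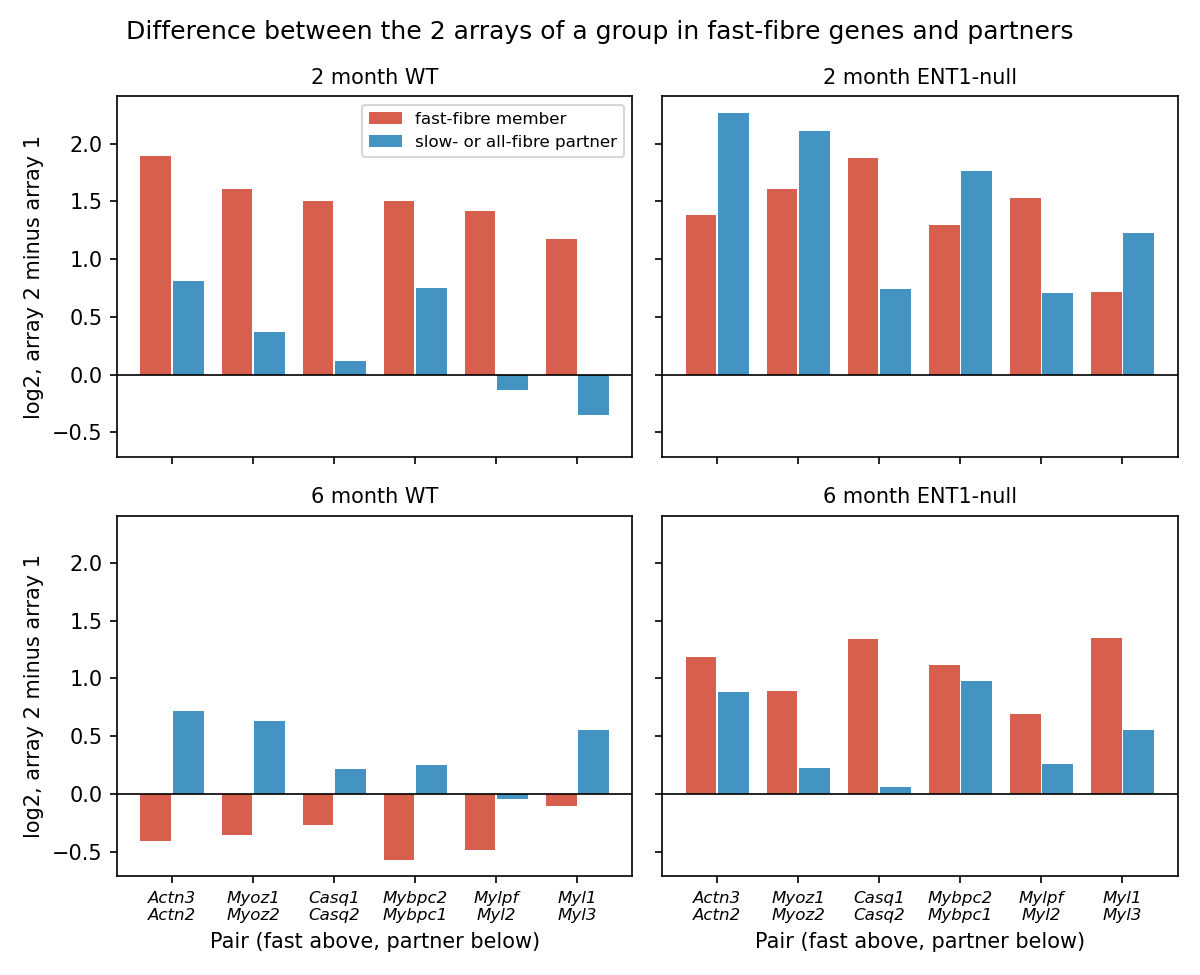
Bars show the log2 level on array 2 minus that on array 1 of a group for 6 pairs, with the fast-fibre gene in red and its slow- or all-fibre partner in blue; each panel is a group of 2 arrays, and there are no error bars because each bar is 1 difference. In 6 month WT all 6 red bars lie below 0, and in 2 month WT and 6 month ENT1-null each red bar exceeds its blue partner. In 2 month WT and 6 month ENT1-null the means of Casq2 and Mylpf were under the filter level of 6.21. Such levels can limit bars, though that of Mylpf reached 1.42 in 2 month WT. Myl2 and Myl3 were also dim, with means over the 8 arrays of 6.96 and 6.63.

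Setting 6 month ENT1-null against 6 month WT asks how the genes differ with loss of ENT1 in the older annulus. Of the 40 muscle genes tested 32 fell, none rose and 8 did not pass (limma adjusted p below 0.05), and the median difference was −2.02, against −0.03 over all genes tested. Of all 15526 genes 17.6% fell and 21.2% rose. Both ENT1-null arrays lay below both WT arrays in 39 of the 40 genes, against 36.8% of all genes. Of the 50 lowest differences among all genes tested 23 were muscle genes, and Myot had the lowest of all. The muscle genes were chosen with earlier results of these data known. These ranks and counts are therefore description and not a test of the list. All 10 genes of the Z disc and thin filament and all 6 of energy supply fell, as did 7 of 11 tested genes of the triad, 4 of 7 of the thick filament and titin, and 5 of 6 of turnover and other roles.

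**Figure D3:**
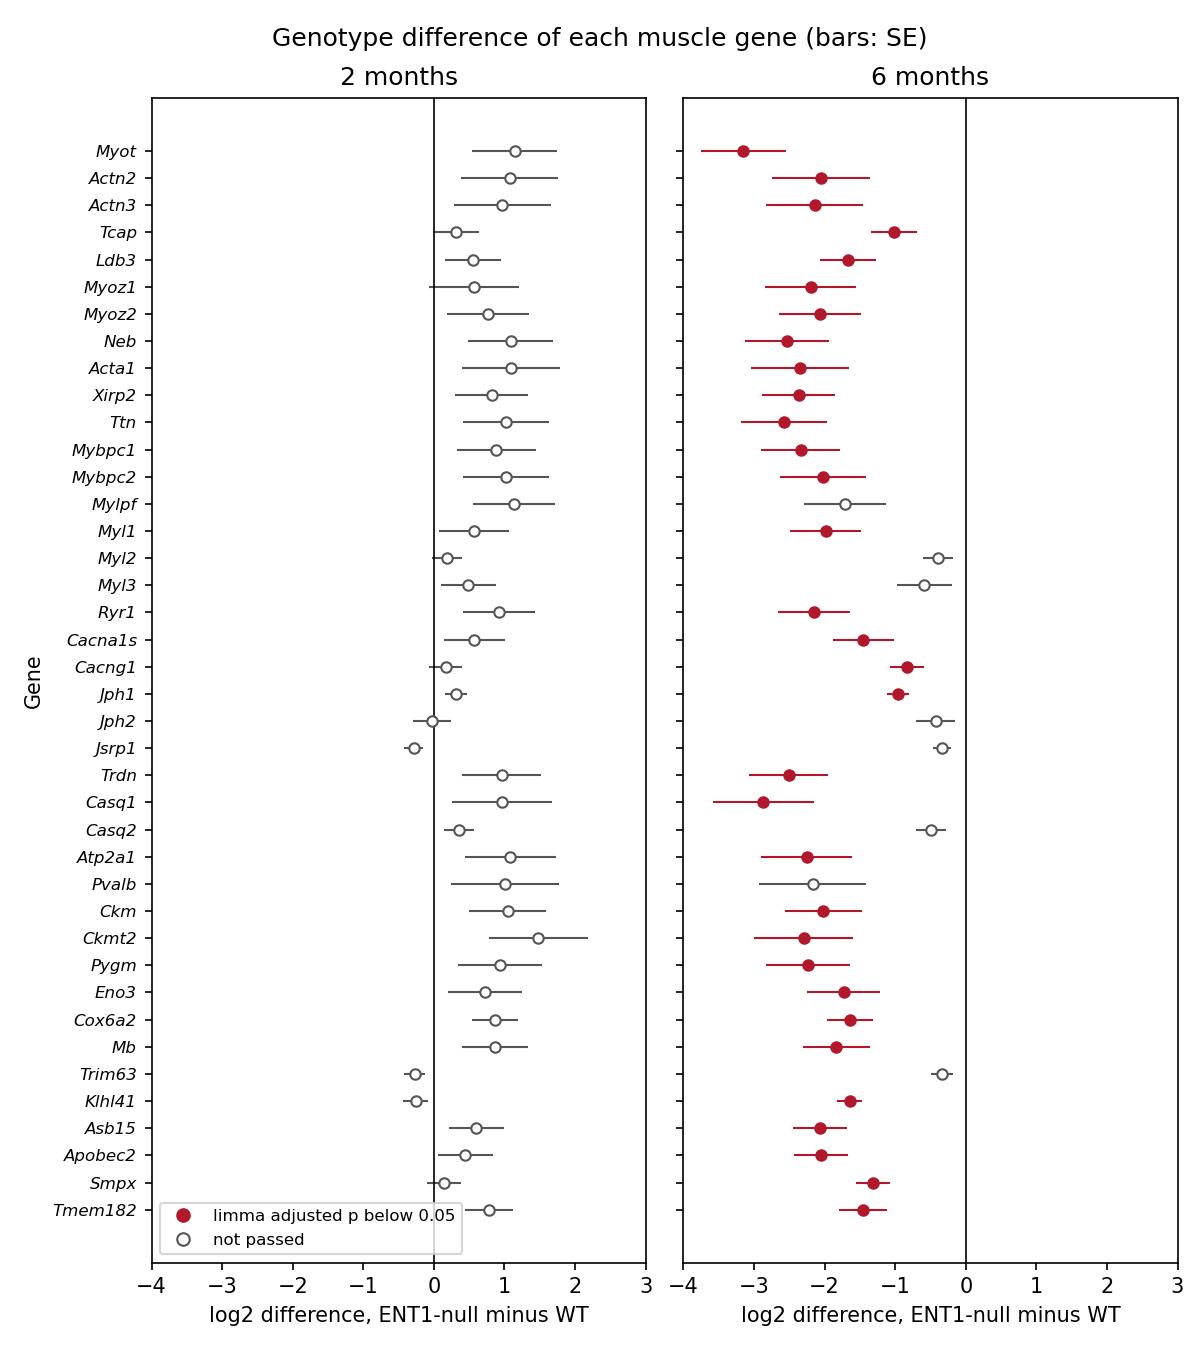
Points show the log2 difference between ENT1-null and WT for the 40 muscle genes tested at 2 months (left) and 6 months (right), bars show the SE of the limma fit, and filled red points passed at an adjusted p below 0.05. All 40 points lie below 0 at 6 months, where 32 passed, and 36 lie above 0 at 2 months, where none passed.

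Among the genes of the Z disc and thin filament, Myot encodes myotilin, which crosslinks actin at the Z disc. It read 7.67 and 8.79 in 2 month WT, 8.51 and 10.25 in 2 month ENT1-null, 10.38 and 10.48 in 6 month WT and 6.76 and 7.79 in 6 month ENT1-null. Only the 6 month ENT1-null arrays and array 1 of 2 month WT lay below 8, and the 6 month genotypes did not overlap. Myot fell by 3.15 ± 0.60 (n = 2 and 2, limma adjusted p = 0.00517). Neb, nebulin, which runs along the thin filament, read 8.52 and 9.56 in 2 month WT, 9.37 and 10.88 in 2 month ENT1-null, 10.96 and 11.03 in 6 month WT and 7.76 and 9.16 in 6 month ENT1-null. Acta1, skeletal alpha-actin, read 8.86 and 10.27 in 2 month WT, 9.76 and 11.56 in 2 month ENT1-null, 11.20 and 11.13 in 6 month WT and 8.10 and 9.54 in 6 month ENT1-null. Both genes had their lowest value on 6 month ENT1-null array 1, and array 2 of that group lay near the lower array of 2 month ENT1-null. Neb fell by 2.54 ± 0.60 (limma adjusted p = 0.0131) and Acta1 fell by 2.35 ± 0.70 (limma adjusted p = 0.0325). The other 7 also fell, from Tcap, the titin cap telethonin, with −1.02 ± 0.33 to Xirp2, an actin-binding Xin repeat protein, with −2.37 ± 0.52. Between them lay Ldb3, Myoz1, Myoz2, Actn2 and Actn3, which encode Z disc proteins, at −1.67 to −2.20.

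Among the genes of the thick filament, Ttn encodes titin, the giant spring between Z disc and M line. It read 8.56 and 9.72 in 2 month WT, 9.37 and 10.95 in 2 month ENT1-null, 10.98 and 11.05 in 6 month WT and 7.78 and 9.10 in 6 month ENT1-null. Myl1, an essential light chain of fast myosin, read 9.44 and 10.61 in 2 month WT, 10.24 and 10.95 in 2 month ENT1-null, 11.28 and 11.17 in 6 month WT and 8.56 and 9.92 in 6 month ENT1-null. Both were high on the 6 month WT arrays and on 2 month ENT1-null array 2, and the 6 month genotypes did not overlap. Ttn fell by 2.58 ± 0.61 (limma adjusted p = 0.0134) and Myl1 fell by 1.98 ± 0.50 (limma adjusted p = 0.0173). Mybpc1 fell by 2.34 ± 0.56 and Mybpc2 fell by 2.02 ± 0.61. Mylpf, the regulatory light chain of fast myosin, gave −1.71 (limma adjusted p = 0.0511), and Myl2 and Myl3, light chains known from slow and cardiac muscle, gave −0.39 (limma adjusted p = 0.178) and −0.59 (limma adjusted p = 0.27). These 3 did not pass.

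Among the genes of the triad, Atp2a1 encodes SERCA1, the calcium pump of fast fibres. It read 9.33 and 11.07 in 2 month WT, 10.68 and 11.89 in 2 month ENT1-null, 11.86 and 11.67 in 6 month WT and 8.85 and 10.17 in 6 month ENT1-null. Jph1, junctophilin 1, which holds the 2 membranes of the triad together, read 7.22 and 7.45 in 2 month WT, 7.46 and 7.84 in 2 month ENT1-null, 7.96 and 7.94 in 6 month WT and 6.84 and 7.15 in 6 month ENT1-null. In both, the 6 month genotypes did not overlap, and the arrays of Jph1 lay closer together within each group. Atp2a1 fell by 2.25 ± 0.65 (limma adjusted p = 0.0283) and Jph1 fell by 0.96 ± 0.16 (limma adjusted p = 0.00275). Ryr1, the calcium release channel, fell by 2.15 ± 0.51, and Trdn, triadin, which binds it, fell by 2.51 ± 0.56. Casq1 fell by 2.87 ± 0.71, the second lowest difference of the 40 genes. Cacna1s, the voltage sensor, fell by 1.45 ± 0.43, and Cacng1, one of its subunits, fell by 0.83 ± 0.24.

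Of the triad genes 4 did not pass. Pvalb, parvalbumin, a calcium buffer of fast fibres, read 7.49 and 9.44 in 2 month WT, 8.55 and 10.40 in 2 month ENT1-null, 10.41 and 9.63 in 6 month WT and 7.38 and 8.32 in 6 month ENT1-null, with wide gaps between the arrays of every group. The 6 month genotypes did not overlap, and the difference was −2.17 (limma adjusted p = 0.0568). Jph2, junctophilin 2, read 7.33 and 7.07 in 2 month WT, 6.81 and 7.54 in 2 month ENT1-null, 7.55 and 7.89 in 6 month WT and 7.59 and 6.99 in 6 month ENT1-null. Here array 1 of 6 month ENT1-null was above array 1 of 6 month WT, the genotypes overlapped, and the difference was −0.43 (limma adjusted p = 0.256). Jsrp1, a protein of the junctional reticulum, read 8.03 and 7.97 in 2 month WT, 7.65 and 7.79 in 2 month ENT1-null, 7.92 and 7.85 in 6 month WT and 7.36 and 7.75 in 6 month ENT1-null. Its arrays lay close together, with the highest value in 2 month WT, and it gave −0.34 (limma adjusted p = 0.0797). Casq2 gave −0.49 (limma adjusted p = 0.11). Sln, sarcolipin, an inhibitor of the calcium pump, was not tested because its mean of 5.63 was under the filter level of 6.21. It read 5.39 and 5.65 in 2 month WT, 5.64 and 5.88 in 2 month ENT1-null, 5.66 and 5.77 in 6 month WT and 5.24 and 5.78 in 6 month ENT1-null.

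Among the genes of energy supply, Eno3 encodes the muscle enolase of glycolysis and Pygm the muscle glycogen phosphorylase. Eno3 read 8.83 and 10.09 in 2 month WT, 9.56 and 10.80 in 2 month ENT1-null, 10.81 and 10.65 in 6 month WT and 8.55 and 9.46 in 6 month ENT1-null. Pygm read 8.30 and 9.50 in 2 month WT, 9.02 and 10.66 in 2 month ENT1-null, 10.62 and 10.34 in 6 month WT and 7.74 and 8.76 in 6 month ENT1-null. Both were lowest on 6 month ENT1-null array 1, and array 2 of that group was also below both 6 month WT arrays. Eno3 fell by 1.73 ± 0.52 (limma adjusted p = 0.0332) and Pygm fell by 2.23 ± 0.59 (limma adjusted p = 0.0214). Cox6a2, a muscle subunit of cytochrome c oxidase, read 7.82 and 8.51 in 2 month WT, 8.60 and 9.47 in 2 month ENT1-null, 9.64 and 9.73 in 6 month WT and 7.79 and 8.30 in 6 month ENT1-null. Ckmt2, the mitochondrial creatine kinase, read 5.57 and 7.03 in 2 month WT, 6.72 and 8.84 in 2 month ENT1-null, 8.25 and 8.69 in 6 month WT and 5.82 and 6.54 in 6 month ENT1-null. Its lowest value was that of 2 month WT array 1, not of a 6 month ENT1-null array. Cox6a2 fell by 1.64 ± 0.32 (limma adjusted p = 0.00602) and Ckmt2 fell by 2.29 ± 0.70 (limma adjusted p = 0.0353). Ckm, the cytosolic creatine kinase, fell by 2.02 ± 0.55 and Mb, myoglobin, fell by 1.83 ± 0.47. Ckm, Ryr1 and Xirp2 each had a dimmer second probe set, which gave differences of −0.24, −0.25 and −0.39 at 6 months.

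Of the 6 genes of turnover and other roles 5 fell at 6 months. Klhl41, a Kelch protein that stabilizes sarcomere proteins, read 8.41 and 8.62 in 2 month WT, 7.97 and 8.54 in 2 month ENT1-null, 8.63 and 8.55 in 6 month WT and 6.89 and 7.00 in 6 month ENT1-null. Its 6 arrays of the other groups lay between 7.97 and 8.63, and both 6 month ENT1-null arrays lay below them. Klhl41 fell by 1.64 ± 0.18 (limma adjusted p = 0.000583), the smallest adjusted p of the 40 genes. Apobec2, a muscle member of the deaminase family, read 8.26 and 8.95 in 2 month WT, 8.44 and 9.66 in 2 month ENT1-null, 9.67 and 9.70 in 6 month WT and 7.41 and 7.87 in 6 month ENT1-null. Asb15, a SOCS box protein of muscle, read 5.48 and 6.25 in 2 month WT, 5.94 and 7.00 in 2 month ENT1-null, 7.39 and 7.72 in 6 month WT and 5.21 and 5.78 in 6 month ENT1-null. Smpx, the small muscle protein of the costamere, read 6.59 and 6.57 in 2 month WT, 6.30 and 7.14 in 2 month ENT1-null, 7.34 and 7.38 in 6 month WT and 6.20 and 5.89 in 6 month ENT1-null. Its 6 month ENT1-null arrays were the lowest of the 8. Tmem182, a membrane protein of muscle, read 7.32 and 8.12 in 2 month WT, 8.02 and 8.99 in 2 month ENT1-null, 9.28 and 9.08 in 6 month WT and 7.61 and 7.84 in 6 month ENT1-null. In these 4 genes the 6 month genotypes did not overlap, and the differences were −2.05 ± 0.38, −2.07 ± 0.39, −1.32 ± 0.24 and −1.46 ± 0.34 in this order (limma adjusted p between 0.00432 and 0.0124). Trim63, the ubiquitin ligase MuRF1 of muscle atrophy, read 7.03 and 7.05 in 2 month WT, 6.51 and 7.01 in 2 month ENT1-null, 7.11 and 7.05 in 6 month WT and 6.82 and 6.66 in 6 month ENT1-null. All 8 arrays lay between 6.51 and 7.11, the 6 month genotypes did not overlap, and the difference was −0.34 (limma adjusted p = 0.123).

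The number of muscle genes that fell at 6 months was 12 when array 1 of 6 month WT was left out, 8 when its array 2 was, 8 when array 1 of 6 month ENT1-null was, and 16 with a trended and robust variance, and Apobec2, Asb15, Cox6a2, Jph1, Klhl41, Myot and Smpx passed whichever array was left out. Asb15, Mylpf and Casq2 had group means under the filter level in 2 groups, and Ckmt2, Smpx and Myoz2 in 6 month ENT1-null, so that they entered the test through their higher groups.

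At 2 months the same comparison asks how the arrays of the genotypes differ in young mice. None of the 40 muscle genes passed in limma, where 0.296% of all genes rose and 0.386% fell. The median difference was 0.80, opposite in sign to that at 6 months, and 36 of the 40 genes lay above 0, against 6156 of all 15526. With array 2 of 2 month ENT1-null left out 25 genes lay above 0 and 15 below. At an unadjusted p below 0.05 there was 1 gene, Cox6a2 with 0.87 ± 0.32 (limma adjusted p = 0.203), against 9.3% of all genes higher by that rule. Ckmt2 gave 1.48 and Tmem182 0.78, and at the other end Jsrp1 gave −0.28, Trim63 −0.27 and Klhl41 −0.26 (limma adjusted p between 0.265 and 0.471). The size of the median rested on single arrays: leaving out WT array 1 gave a median of 0.285 and WT array 2 gave 1.24, while leaving out ENT1-null array 1 gave 1.41 and ENT1-null array 2 gave 0.095.

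The test of the difference between the ages asks whether the genotype difference at 6 months departs from that at 2 months. It was lower at 6 months in 7 of the 40 muscle genes, against 1.89% of all genes, and none was higher. Myot had the largest value, −4.30 ± 0.85 (limma adjusted p = 0.0429), from 1.14 at 2 months to −3.15 at 6 months. Asb15 gave −2.67 ± 0.55, Cox6a2 −2.51 ± 0.46, Apobec2 −2.50 ± 0.54, Tmem182 −2.24 ± 0.48, Klhl41 −1.39 ± 0.25 and Jph1 −1.27 ± 0.22 (limma adjusted p between 0.0384 and 0.0494). All 40 genes lay below 0, with a median of −2.73. With array 1 of 2 month ENT1-null left out 3 muscle genes passed, Klhl41 of these 7 and Myoz2 and Smpx, and of all genes 4 were higher and 17 lower. None passed with any other single array left out, where no gene of all tested passed either except with array 1 of 6 month WT left out (242 higher and 77 lower), and none with no filter on low genes. The median stayed between −3.46 and −2.06 when 1 array was left out.

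The comparisons of 6 with 2 months ask how the genes change with age in each genotype, and they share arrays with the comparisons above. In WT none of the 40 genes passed in limma, as none of all genes did (0% higher), with a median difference of 1.46. At an unadjusted p below 0.05, 28 muscle genes were higher, against 3.76% of all genes, and in 37 both 6 month arrays lay above both 2 month arrays, against 13.5%. Because the muscle genes moved together, neither count is a set of independent results. Cox6a2 gave 1.53, Asb15 1.69 and Tmem182 1.46 (limma adjusted p between 0.201 and 0.215), and Jsrp1 was the 1 gene below 0, with −0.12. In ENT1-null 4 of the 40 genes fell with age, a share near the 10.2% of all genes that fell, with a median of −1.33. They were Klhl41 (−1.31 ± 0.18, limma adjusted p = 0.0038), Jph1 (−0.65 ± 0.16), Apobec2 (−1.41 ± 0.38) and Myot (−2.10 ± 0.60). Both 6 month arrays lay below both 2 month arrays in 29 of the 40 genes, against 29.8% of all genes, and Jph2 was the 1 gene above 0, with 0.12. With array 1 of 2 month ENT1-null left out the count was 20. It was 1 with array 2 of that group or array 1 of 6 month ENT1-null left out, and 2 with array 2 of 6 month ENT1-null or an array of 6 month WT left out. The median was −0.55 with array 2 of 2 month ENT1-null left out.

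Other genes of the same structures were read from lists drawn up by function, with earlier results of these data known. Their counts are to be read against the 17.6% of all genes that fell at 6 months and the 21.2% that rose. Of 33 tested genes of the sarcomere and costamere outside the 41, which include the myosin heavy chains and troponins of fast and slow fibres, 27 fell at 6 months, 1 rose and 5 did not pass (median −1.39). Tnni2, fast troponin I, fell by 1.91 ± 0.28 and Cmya5, a costamere protein, fell by 1.61 ± 0.30. Of 18 other triad and calcium genes 7 fell and 1 rose (median −0.36), with Cacna2d1, a calcium channel subunit, at −1.02 ± 0.17 and Cav3, caveolin 3, at −0.53 ± 0.10. Of 19 other energy genes 8 fell and none rose (median −0.62), with Phka1, a subunit of phosphorylase kinase, at −1.06 ± 0.11 and Pdk4, pyruvate dehydrogenase kinase 4, at −1.06 ± 0.19.

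The lists of the fibre's membrane, nerve contact and control held genes that fell and genes that rose, to be read against 17.6% of all genes that fell and 21.2% that rose. Of 10 genes of the dystrophin complex 6 fell and 1 rose (median −0.34), with Dmd, dystrophin, at −1.01 ± 0.14 and Sntb1, a syntrophin, at 0.88 ± 0.09. Of 17 genes of myogenic factors and satellite cells 8 fell and 1 rose (median −0.27), with Mef2a at −0.51 ± 0.08 and Megf10, a receptor of satellite cells, at 0.57 ± 0.10. Of 11 genes of muscle proteolysis 4 fell and 1 rose (median −0.58), with Foxo1 at −0.70 ± 0.12 and Foxo3 at 0.78 ± 0.09, both transcription factors of the atrophy programme. Of 6 tested genes of the neuromuscular junction 1 fell and 2 rose (median −0.10), with Utrn, utrophin, at −0.47 ± 0.10 and Ache, acetylcholinesterase, at 0.70 ± 0.08. Each gene named in these lists passed (limma adjusted p below 0.05). Which cells the genes of all 7 lists were read from was not tested. In 2 month ENT1-null, where all 41 muscle genes were higher on array 2, Mef2a read 11.87 and 11.90. Foxo1 read 10.11 and 10.04 there, and Utrn 9.92 and 9.90. The genes that rose and are not yet named, chosen after their values were seen, were Tpm3, a tropomyosin also known outside muscle, at 0.58 ± 0.16, Orai1, a calcium entry channel, at 0.43 ± 0.12, and Lrp4, the agrin receptor, at 0.71 ± 0.20. At 2 months 1 gene of all 7 lists passed, Ache at 0.55 ± 0.08.

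Markers of other cell types differed between the same arrays. All 12 neutrophil genes rose at 6 months (median 2.56), against 21.2% of all genes, and their median level read 8.47 and 10.01 in 2 month WT, 10.84 and 11.25 in 2 month ENT1-null, 10.15 and 8.59 in 6 month WT and 12.03 and 11.95 in 6 month ENT1-null. All 5 tested erythroid genes rose (median 1.92), and their median level read 7.82 and 8.23 in 2 month WT, 9.07 and 8.92 in 2 month ENT1-null, 8.55 and 8.19 in 6 month WT and 9.95 and 10.16 in 6 month ENT1-null. Of 20 genes of annulus and cartilage matrix 15 fell, against 17.6% of all genes, and 2, Col1a1 and Col1a2, rose (median −0.82). Their part in the fall of the muscle genes was not tested.

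Genes of smooth and cardiac muscle were read for comparison. At 6 months 17.6% of all genes fell and 21.2% rose, and in lists this short a few calls can stand near those shares. The median of 10 smooth muscle genes lay between 7.17 and 7.71 on the 8 arrays, and at 6 months 3 of them fell (Synpo2, Myocd and Smtn), none rose and 7 did not pass (median −0.32). The median of 10 cardiac genes lay between 6.44 and 6.67, and none of the 8 tested passed at 6 months in limma, with none at an unadjusted p below 0.05 (median −0.06). That level is near the filter level of 6.21, so that a fall could be hard to see in the cardiac list. Of 8 tendon genes, 4 of which are also in the annulus list, 2 fell (Mkx and Fmod) and 1 rose (Tnc), and of 10 endothelial genes 2 rose (Vwf and Pecam1), near the 21.2% of all genes. Of 8 tested adipocyte genes 1 rose (Pparg), and of 5 tested genes of nerve and Schwann cells 2 fell (Pmp22 and Ncmap) and 1 rose (Cnp).

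**Figure D4:**
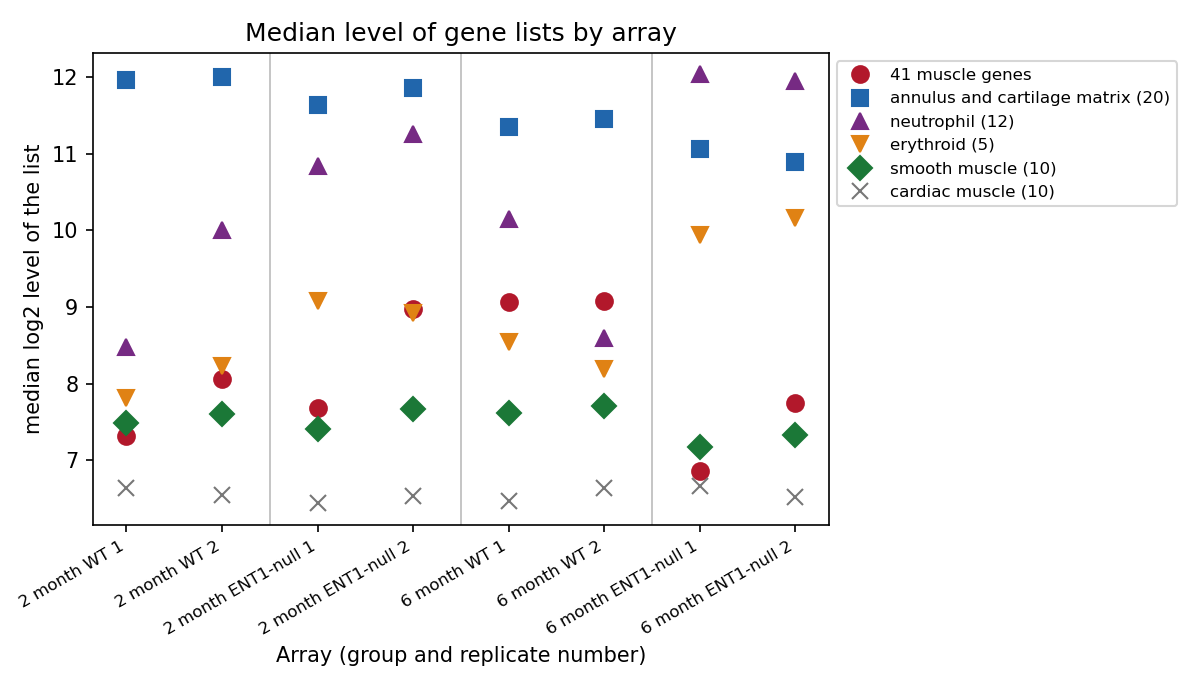
Points show the median log2 level of each gene list (number of genes in brackets) on each array, with grey lines between groups; a list is to be read across arrays, not against another list. The 41 muscle genes range from 6.86 on 6 month ENT1-null array 1 to 9.08 on 6 month WT array 2. The 10 cardiac genes stay between 6.44 and 6.67, near the filter level of 6.21, where a fall could be hard to see.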

How the data were processed

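RNA (200 ng per array, Trizol) was hybridised to Affymetrix arrays, and the deposited values are log2 levels made by RMA (robust multi-array average, which corrects background, normalizes between arrays and summarises probes), per the submitters' processing notes. The sources used here give neither the RMA version nor the genome build of the array design. Of 41345 probe sets 23521 carried 1 gene symbol, 1814 several and 16010 none; only those with 1 symbol were read. For each of 22180 genes the brightest probe set by mean was kept, and 15526 genes with a mean of at least 6.21 (the 30th percentile) were tested. Group means were fitted with limma 3.58.1 (lmFit and eBayes, R 4.3.3) over all 8 arrays, with Benjamini-Hochberg adjustment within each comparison over all genes tested and a threshold of 0.05 on the adjusted p. The script was tested on simulated data. The replicate numbers of the labels were not used as a block.

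The 41 genes, the roles and the other lists were chosen with earlier results of these data known. Values in every array were given for the 2 genes with the highest mean of each role, the 3 with the largest moderated t in each direction of each comparison and all with a passed age difference; Sln, and the fast and slow pairs, were added after values were seen. In each pathway list the 2 genes with the largest moderated t were named. Alternatives were other filters, quantile normalization, centring, the mean of all probe sets, a replicate block, a trended robust variance, only the groups compared, and leaving out each array.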

Additional observations from a re-analysis of the deposited data

Results flagged for a closer look

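In 7 muscle genes the difference between ENT1-null and WT at 6 months departed from that at 2 months by the test of that difference (limma adjusted p between 0.0384 and 0.0494, 2 arrays in each of the 4 groups). The log2 difference at 6 months minus that at 2 months was −4.30 for Myot, −2.67 for Asb15, −2.51 for Cox6a2, −2.50 for Apobec2, −2.24 for Tmem182, −1.39 for Klhl41 and −1.27 for Jph1. At 6 months both ENT1-null arrays lay below both WT arrays in all 7. At 2 months the difference was above 0 in 6 of them and −0.26 in Klhl41. None of the 7 passed in the fit with no filter on low genes. The calls also changed when single arrays were left out, as given below. Asb15 had means under the filter level of 6.21 in 2 month WT and 6 month ENT1-null, so that it entered the test through its higher groups.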

How the results depend on the processing

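The number of muscle genes that fell at 6 months (32) was between 28 and 36 under the other filters, quantile normalization, centring, the mean of all probe sets, the replicate block and only the groups compared, and 16 with the trended robust variance. At the 50th percentile 31 muscle genes were tested and 28 fell, and with no filter 41 were tested and 29 fell. Counts under these filters, also those of the age difference, are thus over unlike sets of genes. Leaving out 1 array gave 8 to 37, with a median of −2.32 to −1.56. Apobec2, Cox6a2, Jph1, Klhl41 and Myot passed in every fit. The count of the age difference (7) was 0 with no filter, 10 at the 50th percentile or with centring, 23 with the replicate block and 2 with the trended robust variance, and leaving out 1 array gave 0 to 3, with a median of −3.46 to −2.06. The count that fell with age in ENT1-null (4) was 22 with the replicate block and 2 with the trended robust variance, and leaving out 1 array gave 1 to 20, with a median of −1.95 to −0.55. At 2 months, and with age in WT, it was 0 in every fit, and the medians were 0.095 to 1.41 and 0.86 to 1.97 when 1 array was left out. The causes were not tested. The array left alone in a group is assumed to vary like the other groups.

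The replicate numbers share no litter, batch or day in the labels, and deviations of arrays with the same number correlated at −0.39 to 0.41 between groups, so that the replicate block, which gave 34 genes at 6 months, 0 at 2 months and 0 with age in WT, pairs arrays by number only.

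Among the 20 genes given by array the sign turned in these cases, shown as the range when 1 array was left out. At 2 months they were Myl1 (−0.017 to 1.15), Jph2 (−0.39 to 0.34), Klhl41 (−0.54 to 0.031), Apobec2 (−0.16 to 1.05) and Smpx (−0.28 to 0.56). In the age difference they were Jsrp1 (−0.24 to 0.14) and Trim63 (−0.31 to 0.19), and with age in WT Klhl41 (−0.032 to 0.18). With age in ENT1-null they were Jph2 (−0.25 to 0.48), Trim63 (−0.27 to 0.23) and Jsrp1 (−0.36 to 0.027). Sln and the genes near the filter have low values on most arrays, which limits their differences.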
